A study of Mus musculus with 8 samples.

Results

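The 2591 regions described here are stretches of autosomal mouse DNA that lay in H3K27ac peaks of all 4 mammary tumors examined, overlapped no protein-coding gene and had their midpoint more than 100 kb from the nearest protein-coding transcription start site (TSS). They were selected on measured values, since a peak in every tumor was required, and made up 2591 of 89238 regions in the union of the 4 peak lists and 2591 of 34078 regions shared by all 4 tumors. H3K27ac is acetylated lysine of histone H3, and the lists came from chromatin immunoprecipitation sequencing of each tumor. The 2 control tumors, labelled tumor, grew in PyMT;Rag1KO mice, and the 2 test tumors, labelled cyst, in K14-TSLPtg;PyMT;Rag1KO mice. Both groups were Balb/c, both carried the PyMT oncogene and lacked Rag1, and both were given wt CD4+ T cells when 4 weeks old. In genotype the groups thus differed by the TSLP transgene, which encodes an epithelial cytokine that acts on immune cells. The paper reports later tumor onset and longer survival with the transgene in such mice, so age at sampling may have differed as well. PyMT is driven by the mammary tumor virus promoter and TSLP by the keratin 14 promoter, which is active in basal epithelial cells. Rag1KO hosts make no T or B cells of their own, so the transferred cells were their CD4+ T cells. Each tumor came from a separate mouse and was taken at terminal size. The peak lists give positions without heights, so the measure used throughout is the number or percent of a region's bases that lie in a tumor's peaks, called its covered bases or coverage.

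H3K27ac marks active promoters and active enhancers, DNA elements that raise transcription of a gene by contacting its promoter, in some cases over long distances. Gene deserts are long intervals without protein-coding genes. They often lie beside genes for transcription factors and growth regulators and can hold many enhancers for 1 gene. Long noncoding RNA (lncRNA) genes are also found in them, so a distant H3K27ac peak can lie at a noncoding promoter. In the text below the gene named beside a region is the one with the nearest TSS, a neighbour and not a shown target.

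The reference sequence (GRCm38, plus strand) of the central 300 bases is shown for 6 regions. They were taken from those with a role in the results after their motif matches had been seen. Capitals mark matches on either strand to the motifs AP-1 (TGANTCA), ETS (CAGGAAG), NFI site (TTGGCA, one arm of a palindrome), CEBP (TTGCNNAA) and TFAP2 (GCCNNNGGC), and N is any base. The Olfm4 window (chr14:82065486-82065785) is from the second most remote region and holds a CEBP and an AP-1 match. The Srek1ip1 window (chr13:104628171-104628470) is from the region with the largest gain in test tumors, and the Zeb2 window (chr2:45239140-45239439) from the region nearest to a regulator of epithelial-mesenchymal transition with one of the largest losses. Each of these holds an NFI site. The Inhba window (chr13:15863423-15863722) holds an NFI site, an AP-1 and a CEBP match at its bases 136 to 188. The Tgfb2 window (chr1:186605810-186606109) is from the region closest to the distance limit and holds an AP-1 and an ETS match. The Myc window (chr15:62206435-62206734) is from the widest region beside Myc, inside the lncRNA gene Pvt1, and holds an ETS match between a pair of TFAP2 matches.
Olfm4 region: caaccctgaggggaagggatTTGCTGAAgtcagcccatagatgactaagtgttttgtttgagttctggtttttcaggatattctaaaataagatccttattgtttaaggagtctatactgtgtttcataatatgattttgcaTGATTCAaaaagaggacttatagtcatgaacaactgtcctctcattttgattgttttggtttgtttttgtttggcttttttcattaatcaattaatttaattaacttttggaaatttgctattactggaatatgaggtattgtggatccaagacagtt
Srek1ip1 region: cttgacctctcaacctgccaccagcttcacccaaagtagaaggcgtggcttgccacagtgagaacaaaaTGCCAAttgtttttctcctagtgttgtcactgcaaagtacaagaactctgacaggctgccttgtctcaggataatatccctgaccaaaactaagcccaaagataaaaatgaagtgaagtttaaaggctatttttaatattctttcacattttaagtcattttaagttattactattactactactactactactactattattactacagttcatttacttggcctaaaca
Zeb2 region: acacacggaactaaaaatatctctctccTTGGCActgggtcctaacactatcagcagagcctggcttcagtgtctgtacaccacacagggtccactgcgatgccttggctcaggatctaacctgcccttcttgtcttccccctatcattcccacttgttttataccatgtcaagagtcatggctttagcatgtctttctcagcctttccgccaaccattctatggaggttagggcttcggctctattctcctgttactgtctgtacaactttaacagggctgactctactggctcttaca
Inhba region: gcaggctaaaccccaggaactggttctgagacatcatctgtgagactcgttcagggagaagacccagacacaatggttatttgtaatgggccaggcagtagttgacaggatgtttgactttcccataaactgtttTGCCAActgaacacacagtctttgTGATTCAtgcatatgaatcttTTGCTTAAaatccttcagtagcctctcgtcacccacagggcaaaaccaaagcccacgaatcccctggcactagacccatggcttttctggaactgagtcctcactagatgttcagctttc
Tgfb2 region: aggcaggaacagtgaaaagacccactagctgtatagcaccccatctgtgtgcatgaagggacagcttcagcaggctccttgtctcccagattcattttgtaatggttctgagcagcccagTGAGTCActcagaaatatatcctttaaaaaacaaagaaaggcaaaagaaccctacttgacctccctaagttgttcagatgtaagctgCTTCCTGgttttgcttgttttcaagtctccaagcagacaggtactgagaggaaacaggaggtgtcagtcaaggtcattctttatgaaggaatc
Myc region: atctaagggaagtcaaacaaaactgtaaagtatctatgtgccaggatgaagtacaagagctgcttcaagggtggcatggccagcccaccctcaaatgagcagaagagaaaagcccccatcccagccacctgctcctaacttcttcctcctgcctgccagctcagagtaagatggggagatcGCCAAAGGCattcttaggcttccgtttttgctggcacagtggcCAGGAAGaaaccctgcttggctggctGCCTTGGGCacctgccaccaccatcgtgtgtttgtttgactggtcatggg

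Luminal markers carried promoter peaks in all 4 tumors. Promoter peaks were found at 10, 9, 10 and 9 of the 10 luminal epithelial markers in control 1, control 2, test 1 and test 2. None of the 4 B cell and 5 adipocyte markers had one, and of 8 T cell markers 2, 1, 1 and 0 had one, with Cd3e, Cd3d, Cd3g and Cd4 without a promoter peak in any tumor. Of 9 fibroblast markers 4, 3, 3 and 0 had a promoter peak, of 8 endothelial markers 3, 3, 2 and 0, of 6 myoepithelial markers 4, 1, 3 and 0, and of 9 myeloid markers 6, 5, 5 and 4. Test 2 thus had none for the first 3 lists but was close to the rest for myeloid markers. Keratin 14, whose promoter drives the transgene, is one of the myoepithelial markers. In tissue lists of this kind, fewer cells of a type and less acetylation per cell cannot be told apart. The lists held 59762 (test 2) to 69861 (control 1) peaks, and the read depth behind them is unknown.

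Gene-desert acetylation was sparse and less often shared than promoter acetylation. Desert territory, autosomal sequence outside protein-coding genes and more than 100 kb from their starts, made up 811 Mb or 32.9% of the autosomes, and it held 3.20 shared regions per Mb against 19.1 per Mb in the rest. Of 9334 desert regions with a peak in any tumor, 4111 were in 1 tumor, 1541 in 2, 1091 in 3 and 2591 in all 4. The last is 27.8%, beside 34.1% of intergenic regions within 100 kb of a TSS, 30.8% of intragenic regions and 79.2% of promoter regions. These shares follow from the selection and are given as description. The members were 220 to 33256 bp wide with a median of 1670 bp (quartiles 1054 and 2506.5) and summed to 5.43 Mb. Their distance to the nearest TSS ran from 100.03 to 2130 kb with a median of 188 kb. At the limit, the 3 nearest members lay 100.03 kb from Tgfb2, 100.14 kb from Hmgcll1 and 100.16 kb from Prdm1, with widths of 2041, 357 and 2039 bp. The 3 shared regions just inside 100 kb lay 99.94 kb from Hif1a, 99.94 kb from Irf2bp2 and 99.89 kb from Gdf10, with widths of 1911, 4410 and 6695 bp.

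As a set, the members carried about the same amount of acetylated sequence in both groups. Control 1 had 4.52 Mb of them in peaks and control 2 had 3.76 Mb, while test 1 had 4.17 Mb and test 2 had 4.00 Mb. The control tumors thus held both the highest and the lowest value, and the test tumors fell between them. Test over control was 0.987, and each test tumor divided by each control tumor gave 0.885 to 1.11 (exact permutation test, two-sided, p = 1, n = 2 and 2). With 2 tumors a group the smallest p this test can give is 0.333, so it cannot pass 0.05. Without control 1 the ratio was 1.09, and without test 2, the tumor with no fibroblast or endothelial promoter peaks, it was 1.002. It was 0.907 without control 2 and 0.983 without test 1. Relative to the covered bases of all shared regions in the same tumor, members made up 7.39%, 6.50%, 6.67% and 7.13% in control 1, control 2, test 1 and test 2, a ratio of 0.993 (0.903 to 1.10 between single tumors). The median covered length per member was 1321, 1059, 1142 and 1160 bp in the same order, and mean coverage was 79.3%, 65.9%, 71.8% and 71.7%. Control 1 had the widest signal in 901 members and control 2 in 348. Control 2 was the narrowest in 906 members and test 2 in 813, although test 2 was also the widest in 787.

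**Figure D1:**
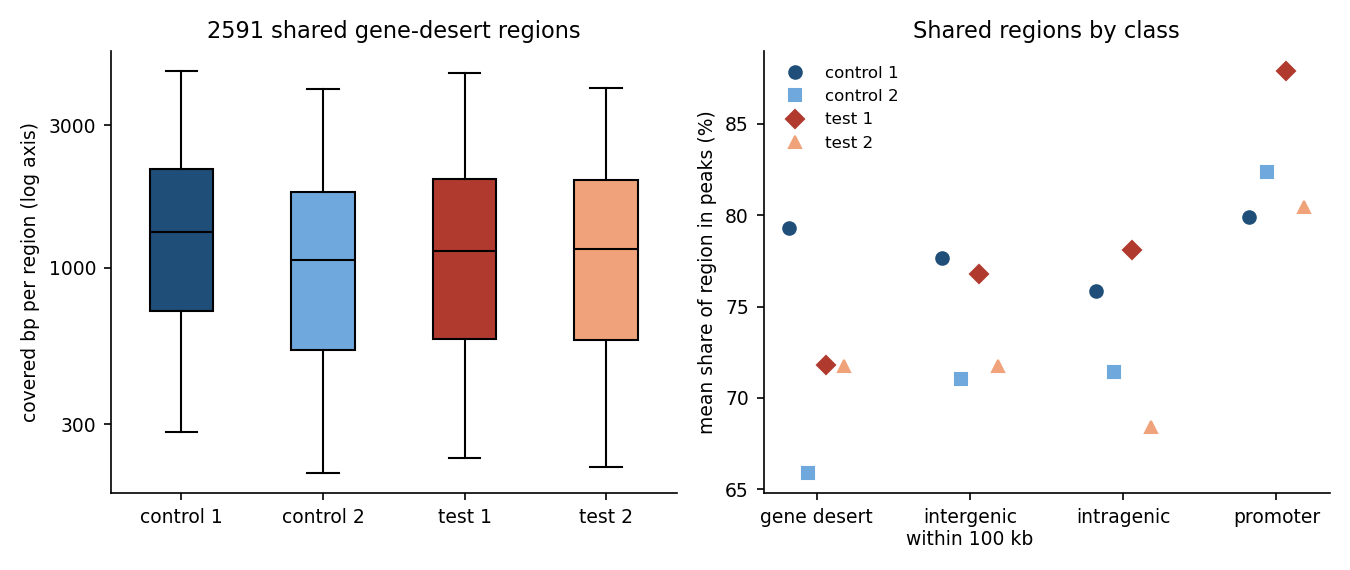
Left, covered bp per region in the 2591 members by tumor on a log axis (box, quartiles with the median; whiskers, 5th and 95th percentiles). Right, mean share of region in peaks (%) for each class of shared region, 1 point per tumor on an axis that starts at 65%: among gene-desert regions control 1 is highest (79.3%) and control 2 lowest (65.9%), with both test tumors between them.

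Whether deserts looked narrower than other shared regions depended on the tumor and not on the group. The other classes were likewise selected for a peak in all 4 tumors. Against shared intergenic regions within 100 kb, the median covered length of members was 124 bp longer in control 1 and 83 bp longer in test 2, but shorter in control 2 (-20 bp) and test 1 (-30 bp). The mean difference was 39.3 ± 76.2 bp (SD, n = 4 tumors; exact sign-flip permutation test, two-sided, p = 0.5). Against intragenic regions the differences were 18, -147, -185 and 27 bp in control 1, control 2, test 1 and test 2 (exact sign-flip permutation p = 0.5). Only against promoters did all 4 tumors point one way: the median of members minus that of promoters was -145, -466, -475 and -333.5 bp, with a mean of -355 ± 154 bp (SD, n = 4 tumors; exact sign-flip permutation p = 0.13, the smallest that 4 tumors allow). Mean coverage told the same tumors apart. It was higher in members than in intragenic regions in control 1 (79.3% against 75.9%) and test 2 (71.7% against 68.4%), and lower in control 2 (65.9% against 71.4%) and test 1 (71.8% against 78.1%).

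The tumors lay further apart far from genes. At 100 to 150 kb (883 members) control 1 had a mean coverage of 79.7% and control 2 of 67.9%, against 73.0% for test 1 and 71.0% for test 2. At 500 to 1000 kb (179 members) it was 78.6%, 58.5%, 69.0% and 73.8%. Between these bins control 1 stayed level, control 2 and test 1 were lower far from genes, and test 2 was higher. Beyond 1000 kb lay 24 members, where control 1 had 80.3%, control 2 61.5%, test 1 65.3% and test 2 79.8%, so control 2 was above its value at 500 to 1000 kb. Regions of one desert are neighbours and share their tumors, so these trends are given without a test. Wide members were better covered than narrow ones in each tumor: between under 1000 bp (589 members) and 10000 bp or more (17 members) mean coverage went from 73.6% to 96.3% in control 1, 62.8% to 83.8% in control 2, 67.5% to 92.9% in test 1 and 68.7% to 84.2% in test 2.

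**Figure D2:**
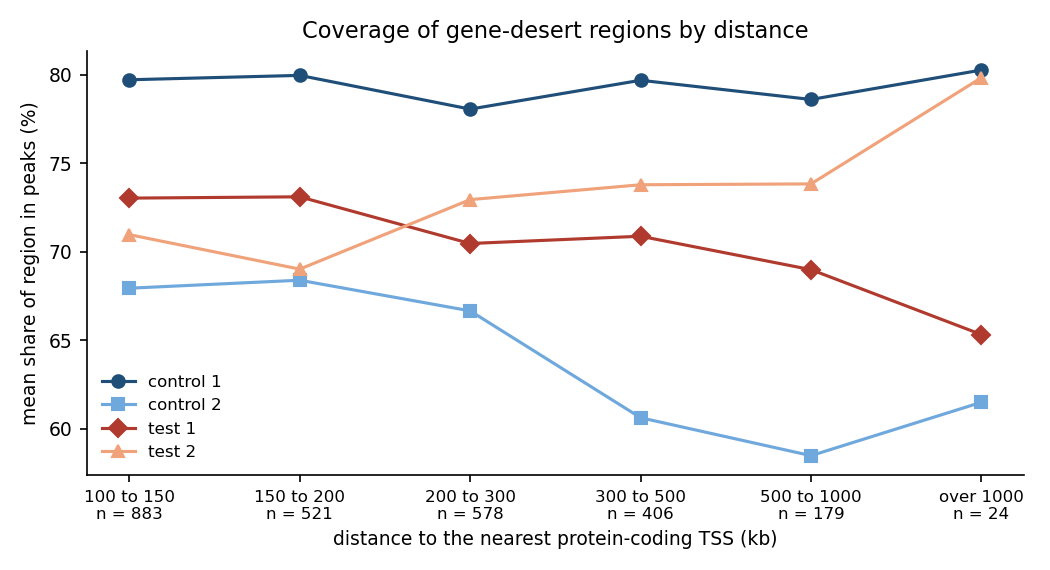
Mean share of a member in peaks (%) against its distance to the nearest protein-coding TSS in kb, 1 line per tumor, on an axis that does not start at 0. Control 2 falls from 67.9% at 100 to 150 kb to 58.5% at 500 to 1000 kb, while test 2 rises from 71.0% to 73.8%.

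Most members had overlapping groups, and neither direction led in a way that held when 1 tumor was left out. Both test tumors were more covered than both control tumors in 353 members (13.6%), beside 19.1% of all shared autosomal regions. Both control tumors were more covered than both test tumors in 369 members (14.2%), beside 13.3% of all shared regions. In the other 1869 (72.1%) the groups overlapped. With all 4 tumors the test-higher share of members was thus below that of all shared regions, of which promoters had the most (24.5%). It was 16.9% in shared intergenic regions within 100 kb and 17.4% in intragenic regions. The control-higher shares of those classes were 14.6% and 14.7%, so the 14.2% of members was not above them. The coverage difference, mean of test minus mean of control, had a median of 26.6 points in the 353 and -30.6 points in the 369. The range over all members was -71.7 to 72.4 points. Without control 1, 1097 members were test-higher (39.7%, beside 36.6% of all shared regions) and 608 control-higher (22.0% beside 25.5%). Without control 2 the counts were 608 (21.3% beside 32.2%) and 1133 (39.7% beside 30.2%). Without test 1 they were 1038 (36.3% beside 33.9%) and 1015 (35.5% beside 39.2%), and without test 2 they were 960 (30.7% beside 41.6%) and 959 (30.7% beside 25.1%). Both the leading direction and the members' place against all shared regions therefore changed with the tumor left out.

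The largest gains in test tumors had nearest genes with differing roles. The member 164 kb upstream of Srek1ip1, which encodes a partner of a splicing regulator (chr13:104627612-104629031), lay in the gap between the genes Adamts6 and Cwc27. It was covered over 186 and 158 bp in control 1 and control 2 and over 980 and 1420 bp in test 1 and test 2, a difference of 72.4 points. The member 796 kb upstream of Sel1l (chr12:92644286-92646412) had 940, 158, 2127 and 1803 bp in the same order. In both, the lower test tumor was well above the higher control tumor. The member 171 kb downstream of Tbc1d4, a Rab GTPase-activating protein of insulin-stimulated glucose uptake (chr14:101437690-101438989), had 160, 270, 1300 and 815 bp. The member 182 kb upstream of Cxcl12, a chemokine made by stromal cells (chr6:116986203-116987229), had 216, 197, 1025 and 677 bp. The member 195 kb downstream of Sp3, a zinc finger transcription factor (chr2:72785377-72786300), had 160, 425, 874 and 867 bp and overlapped the lncRNA gene 6430710C18Rik. In each of these 5 the control tumors also had a peak, as the selection requires, and it covered up to 44.2% of the region at Sel1l (control 1) and 46.0% at Sp3 (control 2).

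The largest losses in test tumors included a region beside Zeb2 and a pair beside Thbs1. The member 152 kb downstream of the olfactory receptor gene Olfr693 (chr7:106528317-106529142) had 720, 808, 183 and 161 bp in control 1, control 2, test 1 and test 2, a difference of -71.7 points. The member 122 kb upstream of Zeb2, a repressor that drives epithelial-mesenchymal transition (chr2:45238464-45240117), had 1654, 1172, 219 and 238 bp. Its test tumors kept 13.2% and 14.4% of the region, and its control tumors 100% and 70.9%. Upstream of Thbs1, which encodes the matrix protein thrombospondin, the member at 161 kb (chr2:117950430-117952070) had 1551, 1641, 373 and 514 bp. The member at 208 kb (chr2:117902231-117904765) had 2535, 1747, 526 and 243 bp. Of the 14 members nearest to Thbs1, which is named for these losses, 4 were control-higher and 0 test-higher, beside 14.2% and 13.6% of all members. The 4 include the pair by which Thbs1 was picked, so the count is a description only. The member 147 kb upstream of Ahr, the aryl hydrocarbon receptor (chr12:35681493-35683346), had 1854, 1171, 185 and 248 bp. None of these 10 strongest members in either direction lay at a lncRNA start.

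**Figure D3:**
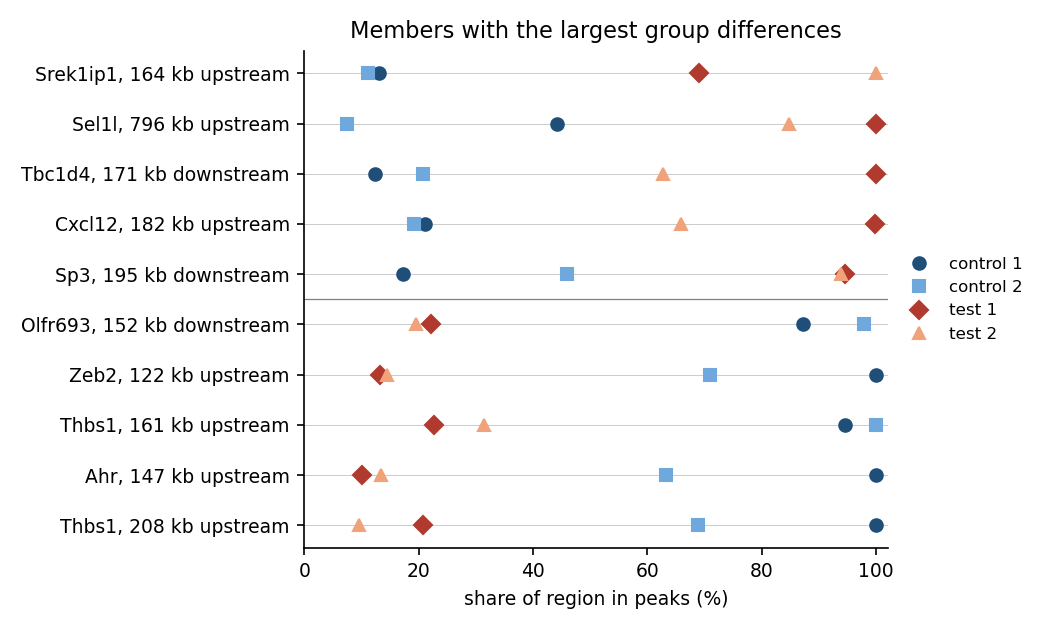
Share of region in peaks (%) for the 5 members with the largest gain in test tumors (above the line) and the 5 with the largest loss (below it), 1 point per tumor. The groups do not overlap in any of the 10, which were chosen for that: at Srek1ip1 the control tumors sit at 13.1% and 11.1% and the test tumors at 69.0% and 100%.

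Among the few members beside fibroblast marker genes, control-higher orders were common. Of 7 members nearest to a fibroblast marker, 4 were control-higher and 0 test-higher, beside 14.2% and 13.6% of all members. The 3 members nearest to Dcn, a collagen-binding proteoglycan, had mean coverages of 85.1%, 72.3%, 51.3% and 43.3% in control 1, control 2, test 1 and test 2. The member nearest to Col1a2, a collagen chain, had 100%, 62.4%, 54.4% and 37.0%, and that nearest to Pdgfra, a growth factor receptor, 94.9%, 90.2%, 89.1% and 79.2%, so the groups at Pdgfra were close. The 2 members nearest to Postn, a matrix protein, had mean coverages of 98.8%, 34.2%, 52.1% and 49.4%, control 2 being lowest, and neither was control-higher. Coverage within 10 kb of the fibroblast marker starts averaged 5.8%, 3.6%, 3.5% and 1.0%, and it was lower in the test mean for 7 of 9 markers and higher for 0. Endothelial markers did not pair with their members in this way: coverage within 10 kb of the start was lower in the test mean for 5 of 8 markers, while of 6 members nearest to one 0 were control-higher and 1 test-higher. Coverage at the start was also lower for 6 of 9 myeloid markers and 6 of 8 T cell markers, and higher for 1 in each list. The 3 members nearest to a myeloid marker included 0 control-higher ones, and no member was nearest to a T cell marker. Luminal markers were lower for 4 of 10 and higher for 6. The part of stromal content in the order of the members was not tested. The member nearest to Trp63, the regulator of basal and myoepithelial cells, was level in 3 tumors (95.5%, 92.6% and 93.0%) and lower in test 2 (39.4%).

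The 10 widest members were acetylated blocks of 12125 to 33256 bp, and 6 of the 10 lay at a lncRNA start. The widest was 111 kb upstream of Ptpn1, a tyrosine phosphatase, in the interval between Ptpn1 and Cebpb (chr2:167804408-167837663). It lay at the start of the lncRNA 1200007C13Rik and was covered over 32995, 32230, 32961 and 30425 bp in control 1, control 2, test 1 and test 2. The second, 520 kb from Tnp1 in the Tnp1-Tns1 desert (chr1:73522836-73548552), held the starts of the lncRNAs C530043A13Rik and Gm29186 and had 24766, 23272, 25391 and 19168 bp. The third was 228 kb downstream of Mef2c, a MADS box transcription factor (chr13:83720050-83743718), over the lncRNA C130071C03Rik and the microRNA gene Mir9-2, and had 21675, 21303, 20186 and 23669 bp. Coverage of these 3 blocks was 85.3% or more in each tumor except test 2 at Tnp1 (74.5%).

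Among the other broad blocks, coverage ranged from nearly level to uneven between tumors. The block 443 kb upstream of Trps1, a GATA-type repressor of luminal cells (chr15:51325353-51341350), had 15998 bp in control 1 but 7184 bp in control 2, with 14219 and 13185 bp in test 1 and test 2. A pair between Phlda1 and Krr1 (chr10:111794134-111809886 and chr10:111830099-111845392) was covered over more than 90% in every tumor. The pair beside Pik3r1, the regulatory subunit of phosphoinositide kinase, was narrower in control 2 and test 2: the wider of them (chr13:101534097-101548481) had 14130, 10187, 13859 and 9436 bp. Groups did not overlap in 2 of the 10 blocks, beside 13.6% of all members in the test-higher direction and 14.2% in the control-higher direction. The block 1038 kb upstream of Sel1l, a component of the endoplasmic reticulum quality control machinery (chr12:92879791-92894016), had 12516, 8815, 13202 and 13852 bp and overlapped no annotated gene. The block between Trp63 and P3h2, a collagen prolyl hydroxylase (chr16:25944145-25957926), had 13192, 11643, 8368 and 4898 bp.

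The most remote members included narrow ones: the median width beyond 1000 kb was 1085.5 bp, against 1670 bp over all members. Their peak in every tumor follows from the selection. The farthest lay 2130 kb from Cntnap5b, a neuronal adhesion gene (chr1:101901891-101902912), with 783, 704, 422 and 991 covered bp in control 1, control 2, test 1 and test 2. The second lay 2082 kb from Olfm4, which encodes a secreted glycoprotein of epithelia (chr14:82064457-82066816), with 2327, 2119, 2086 and 1688 bp. The other 3 lay 1763 kb from Flrt2 (890 bp wide), 1690 kb from Pcdh17 (290 bp) and 1632 kb from Pabpc4l (1875 bp). None of these 5 lay at a lncRNA start.

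Members were spread unevenly over deserts, and the part of desert length in this was not tested. A desert is here the gap between neighbouring protein-coding genes, and 720 deserts held at least 1 member. Of these, 278 held 1 member, and 57 held 10 or more and together 857 members (33.1%). Joined across gaps of up to 20 kb, the members formed 1535 groups, of which 1004 were single regions and 65 had 5 or more. The largest group had 22 members over 191 kb in the Ly86-Rreb1 desert (chr13:37478013-37669479). Chromosome 13 had the most members (333, or 7.8 per Mb of the sequence more than 100 kb from a TSS) and chromosome 7 the fewest per such Mb (1.8).

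The 5 deserts with most members held 138 of them, the fifth place, shared with Gm11361-Sox4 at 22 members, going to Tnp1-Tns1 by its wider total of member sequence. The Kif2a-Ndufaf2 desert on chromosome 13 had 38 members, with 65.6, 60.4, 68.8 and 54.3 kb covered in control 1, control 2, test 1 and test 2. The A1bg-Myc desert on chromosome 15, upstream of Myc, had 28 members and 59.6, 49.3, 55.2 and 52.2 kb. The Trps1-Eif3h desert had 27 members and 98.9, 73.0, 92.5 and 67.5 kb. In all 3 the groups overlapped. The Ly86-Rreb1 desert, beside the RAS-responsive zinc finger gene Rreb1, had 23 members in 359 kb and 59.1, 55.6, 57.7 and 61.0 kb, and 8 of its members lay at a lncRNA start. The Tnp1-Tns1 desert had 22 members and 76.8, 64.9, 82.5 and 66.0 kb. Of the 138 members, 18 (13.0%) were test-higher and 12 (8.70%) control-higher, beside 13.6% and 14.2% of all members. The next 7 deserts, chosen after their values were seen, held 18 to 22 members each. In the order test-higher and control-higher, Gm11361-Sox4 had 4 and 1 of 22, Slc30a5-Pik3r1 1 and 1 of 21, Foxo1-Cog6 0 and 6 of 20, Pik3r1-Cd180 2 and 0 of 20, Klf14-Mkln1 0 and 5 of 19, Rad51b-Zfp36l1 4 and 3 of 19, and Phlda1-Krr1 5 and 2 of 18. The leaning thus went either way between deserts, around 13.6% and 14.2% over all members.

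**Figure D4:**
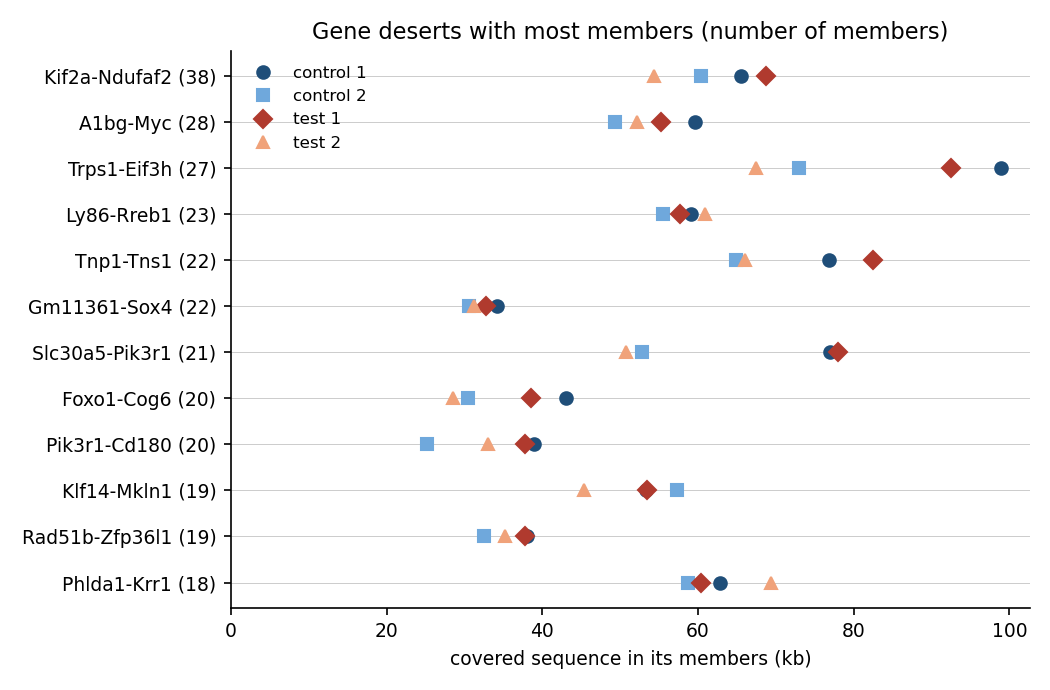
Covered sequence (kb) summed over the members of the 12 gene deserts with most members, 1 point per tumor, with the number of members in brackets. In Trps1-Eif3h the values run from 67.5 kb (test 2) to 98.9 kb (control 1), and in Gm11361-Sox4 the 4 tumors lie close together.

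Regulators of mammary epithelium were among the neighbours of the members. At least 1 member was nearest to 23 of 57 autosomal mammary epithelial transcription factor genes (40.4%), beside 908 of 20780 protein-coding genes (4.37%). High shares were not particular to this list. They were 44.4% for fibroblast markers (4 of 9), 37.5% for endothelial markers (3 of 8), 28.6% for proto-oncogenes and cell cycle regulators and 24.6% for growth factor ligands and receptors. None of the 10 luminal epithelial markers was a nearest gene, nor was any T cell, B cell or adipocyte marker. How many genes of either set border a desert was not taken into account. The 141 members of this list split into 18 test-higher (12.8%) and 17 control-higher (12.1%), close to the 13.6% and 14.2% of all members. Trps1 had 14 members at 107 to 454 kb. Lmo4, a LIM-domain cofactor of the mammary gland, had 13 at 111 to 627 kb, the widest of which (chr3:143947211-143956235) had 7968, 7934, 8444 and 8919 bp in control 1, control 2, test 1 and test 2. Both test tumors lay above both control tumors there, by 8.09 points in coverage. Sox9, a regulator of luminal progenitors, had 13 members at 161 to 738 kb, the widest (chr11:113099822-113104057) with 3045, 3095, 2962 and 4236 bp, where test 1 was lowest and test 2 highest.

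Oncogene and growth factor neighbours showed mixed orders. Of 14 autosomal proto-oncogenes and cell cycle regulators 4 were a nearest gene, with 35 members, 5 test-higher (14.3%) and 7 control-higher (20%), beside 13.6% and 14.2% of all members. Myc, the growth-promoting transcription factor, had 27 of them at 112 to 503 kb on both sides, 3 of the 27 test-higher and 6 control-higher. Its widest member (chr15:62201993-62211177), in Pvt1, had 9185, 8149, 6881 and 5909 bp in control 1, control 2, test 1 and test 2, with both test tumors below both control tumors. Cdkn2b, a cell cycle inhibitor, had 4 members, and its widest had 2223, 1595, 1268 and 1921 bp, with overlapping groups. Mycn had 2, and its wider one had 768, 533, 1184 and 914 bp, higher in both test tumors.

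Of 61 growth factor ligands and receptors, 15 were nearest to 50 members, 9 test-higher (18%) and 5 control-higher (10%), beside 13.6% and 14.2% of all members. Tgfbr2, a receptor for TGF-beta, had 9 members, and the widest (chr9:116328800-116332883) had 3782, 2759, 2769 and 4024 bp in control 1, control 2, test 1 and test 2. Inhba, an activin subunit, had 9, and the widest (chr13:15861475-15865672) had 3876, 3694, 1754 and 3670 bp, low in test 1 alone. Tgfb2, a TGF-beta ligand, had 8, and the widest (chr1:186604940-186606980) had 1775, 765, 1393 and 2041 bp. In these 3 the groups overlapped except at Inhba, where both test tumors were below both control tumors, test 2 by a small margin.

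Of 27 AP-1, ETS and stress response factors, 6 were nearest to 15 members, 3 test-higher (20%) and 4 control-higher (26.7%), beside 13.6% and 14.2% of all members. Ets1 had 4 members, Maf 3 and Jun 3. The widest beside Jun, an AP-1 subunit (chr4:95160172-95162414), had 2143, 2005, 1491 and 1823 bp in control 1, control 2, test 1 and test 2, with both test tumors lower. The widest beside Ets1 (2662, 2001, 2534 and 1917 bp) and beside Maf (2182, 1597, 1764 and 2745 bp) had overlapping groups. Of 15 autosomal regulators of epithelial-mesenchymal transition, 3 were nearest to 6 members: Zeb2 had 4, of which 1 was test-higher and 1 control-higher, and Tcf4 and Zeb1 had 1 each, with overlapping groups.

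Noncoding starts accounted for a small share of the members. A lncRNA start lay within 1 kb of 174 members (6.72%), beside 7.07% of shared intergenic regions within 100 kb and 2.88% of desert regions not found in all 4 tumors. Of 2097 lncRNA starts in the deserts, 184 (8.77%) had a member within 1 kb. Members at such starts were wider, with a median of 2138.5 bp against 1646 bp for the rest, and the share rose from 4.07% of members under 1000 bp to 35.3% of those of 10000 bp or more. More members lay in the body of a lncRNA gene, 687 (26.5%) against 19.2% of shared intergenic regions within 100 kb. Of the 174, 17 were test-higher (9.77%) and 19 control-higher (10.9%), beside 13.6% and 14.2% of all members. The part of region width in these shares was not tested.

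The sequence under the members was poorer in CpG than that of promoters. In 500 bp windows at their midpoints the median GC content was 45.0%, beside 42.2% in windows 10 kb to either side outside all peaks, 48.0% in shared intergenic regions within 100 kb and 58.8% in promoters. Windows with more than 50% GC and a CpG ratio, observed over expected, above 0.6 made up 1.66% of members and 57.0% of promoters. A median of 10.4% of the window was repeat sequence, against 21.6% in the flanking windows.

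Of 14 motifs searched on both strands, 13 were found in a larger share of member windows than of flanking windows, and 12 in 1000 bp windows, where the CTCF core was also not more frequent (9.15% against 9.22%). An ETS motif lay in 26.6% of member windows against 14.7% of flanks, an NFI site in 36.6% against 23.0%, an AP-1 motif in 23.4% against 16.0%, a TFAP2 motif in 13.8% against 6.02% and a TEAD motif (ACATTCC) in 10.2% against 6.94%. In all shared regions, which include promoters, the shares were 25.3% for ETS, 28.4% for NFI, 16.6% for AP-1, 21.9% for TFAP2 and 7.55% for TEAD. Shared intergenic regions within 100 kb were closer to the members, with 28.7%, 32.0%, 20.8%, 16.7% and 8.58% in the same order. A CEBP motif lay in 26.9% of members, 21.7% of flanks, 22.6% of shared intergenic regions within 100 kb and 20.03% of all shared regions. The exception was the motif of GATA factors, AGATAAG, found in 5.25% of members and 7.19% of flanks. The letters of one motif can lie within a match of another, base composition differed between the sets, and a match is a description of the letters and not a bound site.

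Members and promoters differed in opposite directions for several motifs. The GC box (GGGCGG) lay in 8.53% of members and 55.8% of promoters, while AP-1 lay in 23.4% and 7.96% and SOX (CATTGTT) in 12.2% and 3.54%. Between members that were test-higher (353) and control-higher (369), 6 of the 14 motifs were more frequent in the former. These shares were TEAD 13.3% against 8.13%, CEBP 31.4% against 26.3%, STAT 21.5% against 18.4%, GATA 5.95% against 2.98%, SOX 11.3% against 9.21% and CTCF core 5.38% against 3.79%. The other 8 were more frequent in the latter, with NFI 33.7% against 39.6%, E-box 23.2% against 29.0%, TFAP2 14.7% against 16.8%, RUNX 11.3% against 13.3%, ETS 24.6% against 26.0%, AP-1 20.7% against 21.7%, GC box 10.2% against 10.8% and FOX 10.2% against 10.6%. The order of 4 of the 14 motifs turned with the window. In windows of 1000 bp CEBP was held by 44.2% of the test-higher and 44.7% of the control-higher members, FOX by 18.7% against 16.0% and the GC box by 16.1% against 15.4%. In windows of 200 bp the CTCF core was held by 1.98% against 2.17%. These are shares of small sets of neighbouring regions and were not tested. The motifs whose letters are not given above were RUNX (TGTGGTT), FOX (TGTTTAC), STAT (TTCNNNGAA), E-box (CAGCTG) and the CTCF core (CCACNAGNG), which was in 4.67% of members and 4.58% of flanks.

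**Figure D5:**
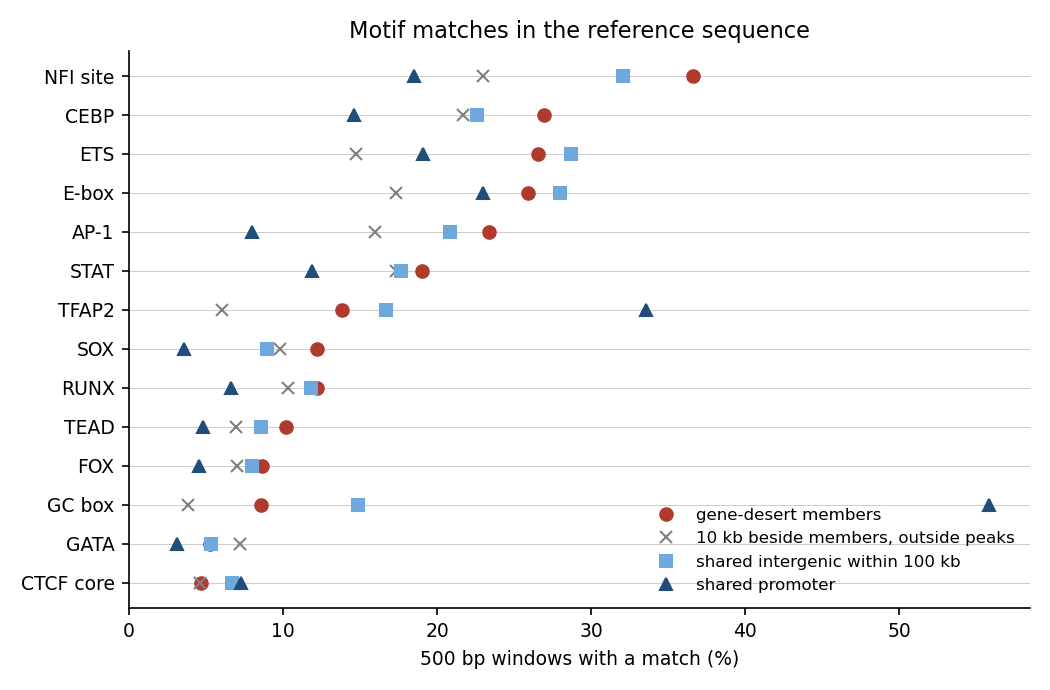
Share of 500 bp windows with a match (%) for 14 motifs, in the 2591 members, in flanking windows 10 kb away outside peaks, in shared intergenic regions within 100 kb and in shared promoters. Member windows exceed flanking windows for 13 motifs, GATA being the exception, and the GC box is at 55.8% in promoters against 8.53% in members.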

How the data were processed

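H3K27ac peak lists of 2 control and 2 test tumors were used. The 4 input libraries were not analysed here. Per the study's methods and the labels, the authors aligned reads with BWA to mm10, called peaks with MACS2 in each tumor against its input, and deposited intervals cleaned and merged (200 in the file names, taken as bp), without scores, so depth and peak height are unknown. Peaks that overlapped or touched were joined over 19 autosomes with Python 3.11.15 (numpy 2.4.6, pandas 2.3.3, scipy 1.17.1, pysam 0.24.0). Genes were those of GENCODE M21 (21951 protein-coding), and sequence was GRCm38.p6, the same build as mm10 but of C57BL/6J and not Balb/c. A promoter region lay within 1000 bp of a protein-coding TSS. Coverage is the percent of a union region's bases in a tumor's peaks. Covered bases of the groups were compared by exact permutation of 4 tumors and classes by exact sign flips, and both were limited by the number of tumors. Named regions were the 10 widest, the 5 farthest, the 5 largest differences in each direction among members with separated groups, the 5 deserts with most members, the widest member beside the 3 leading genes of each neighbour list, and the 3 on each side of the distance limit. Members and lists were chosen with earlier results of these data known. Interval functions were checked on simulated intervals. Replicate numbers were names only. Alternatives were peak width, peak number, joining, overlap, distance limit, start sites, lncRNA starts, chromosome X, windows and leaving out each tumor.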

Additional observations from a re-analysis of the deposited data

How the results depend on the processing

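The ratio of covered bases in members, test over control, crossed 1 when peaks had to cover at least 50% of the region in each tumor (1.01) and when members lay more than 200 kb from a TSS (1.01). It ran from 0.907 to 1.09 when 1 tumor was left out, above 1 without control replicate 1 (1.09) or test replicate 2 (1.002). Relative to all shared regions it was 1.02 beyond 200 kb and ran from 0.934 to 1.06, above 1 without control replicate 1 (1.06) or test replicate 1 (1.04). The difference in median width to nearer intergenic regions was 39.3 bp, rose to 198 bp with only peaks of at least 1 kb, 134.5 bp with at least 50% covered and 84.5 bp beyond 50 kb, turned to -15 bp beyond 200 kb and ran from 3.17 to 39.8 bp when 1 tumor was left out. The number of members was 859 with only peaks of at least 1 kb, 1260 with at least 50% covered, 4426 beyond 50 kb and 1187 beyond 200 kb, and ran from 2761 to 3128 with 1 tumor left out. In the same 4 settings test-higher members numbered 124, 183, 674 and 174, and control-higher members 96, 153, 657 and 154, so that test-higher members led, unlike in the main result (353 against 369). Their shares, beside those of all shared regions, were 14.4% beside 20.2%, 14.5% beside 21%, 15.2% beside 19.1%, and 14.7% beside 19.1% for test-higher and 11.2% beside 11.6%, 12.1% beside 11.2%, 14.8% beside 13.3%, and 13.0% beside 13.3% for control-higher. With 1 tumor left out they ran from 608 to 1097 and from 608 to 1133, since fewer tumors have to be in order. Test-higher members led without control replicate 1 (1097 against 608), test replicate 1 (1038 against 1015) and test replicate 2 (960 against 959), and control-higher members without control replicate 2 (1133 against 608). Motifs more frequent in members than in flanks numbered 13 of 14 in 200 bp windows and 12 in 1000 bp windows. LncRNA starts within 5 kb gave 334 members. Of 82 values computed under alternatives, 53 kept their direction and, for counts, stayed within 1.5 times. The causes of the others were not tested. No paired analysis was possible because the labels carry no replicate numbers that link tumors.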

Other observations

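Chromosome X, which was left out of the members, held 56 regions that met the same conditions, of 719 shared regions and 248 desert regions in any tumor. Their peaks covered 51.7 kb in control 1 and 42.0 kb in control 2, and 44.7 kb in test 1 and 48.0 kb in test 2, the same order of tumors as on the autosomes except that test 2 exceeded test 1. Of the 56, 3 (5.36%) were test-higher and 11 (19.6%) control-higher, beside 19.2% and 9.46% of all shared regions of chromosome X.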
